A study of Mus musculus with 16 samples.

Results

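Chemokines are small secreted proteins that steer the movement of leukocytes, and 37 of the 38720 gene entries in the count table carry a chemokine name: every Ccl and Cxcl gene with a numbered symbol, together with Cx3cl1. Of these, 27 passed the filter for low counts and entered the tests, which ran over 16842 genes, and 10 did not. Transcript levels of the genes were read in adipose progenitors, the stromal precursors of fat cells, from mice 4 weeks old. Cells came from subcutaneous adipose tissue (SAT) or visceral adipose tissue (VAT) of wild-type C57BL/6J mice (WT) or of Nr4a1 knockout mice (KO), with n = 4 libraries in each of the 4 groups. The labels give the knockout genotype as B6;129S2-Nr4a1tm1Jmi/J with C57BL/6J in the strain field, and do not say whether the WT mice were littermates. The loss of Nr4a1 and a difference in genetic background therefore cannot be told apart. The design text speaks of biological replicates without saying that each was a separate animal, so p-values measure the spread between these libraries, which may be technical. Column names carry the word MACS, a magnetic cell sort, but the sources used here do not name the markers.

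Chemokines are named for the spacing of their first cysteines (CC, CXC or CX3C) and act through G protein-coupled receptors on leukocytes. Some, such as Cxcl12, are made constitutively to hold or guide cells, whereas others are switched on by interferons, interleukin-1, tumour necrosis factor or type 2 cytokines. Stromal cells and progenitors of fat are known sources of chemokines that bring monocytes, eosinophils, neutrophils and lymphocytes into the tissue. Atypical receptors clear chemokines without signalling, and proteases such as Dpp4 cut their amino termini. Nr4a1 is an orphan nuclear receptor and immediate early gene with known roles in restraining inflammatory transcription in myeloid cells.

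Total counts ran from 34655519 to 55551845 per library. Levels are given as CPM, read counts put on 1 library size by TMM scaling. Differences are log2 fold changes with their SE, and adjusted p is the Benjamini-Hochberg value of edgeR's quasi-likelihood test, with genes called under 0.05. Nr4a1 (chromosome 15, 101254269 to 101274795, build mm10) ran from 997 to 1212 CPM in WT SAT and from 195 to 209 CPM in KO SAT, and from 1432 to 1649 CPM in WT VAT and from 297 to 327 CPM in KO VAT. Its level fell in KO, with differences of -2.43 ± 0.08 (SAT, adjusted p = 5.34e-12) and -2.31 ± 0.08 (VAT, adjusted p = 5.53e-12). All 10 adipose progenitor markers passed the filter, with a summed level between 21390 and 67389 CPM in every library. Markers of other cells were also present. Those of macrophages and monocytes (9 of 10 in the table, 8 of which passed the filter) summed to 25.9 to 36.9 CPM (WT) and 28.4 to 35.9 CPM (KO) in the SAT libraries, and to 53.4 to 69.1 CPM (WT) and 40.4 to 65.7 CPM (KO) in the VAT libraries. The 7 mesothelial markers summed to at most 10.4 CPM in any SAT library and to between 790 and 1533 CPM in the VAT libraries. Pericyte and smooth muscle markers, all 6 of which passed and were called higher in VAT in both genotypes, summed to between 1768 and 3715 CPM in the SAT libraries and to between 4336 and 5672 CPM in the VAT libraries. Blood endothelial markers (6 of 6 passed) summed to 205 to 308 CPM in SAT and 93.1 to 133 CPM in VAT. In WT, however, 3 of them were called higher in VAT and 1 lower. Over all genes, 19.1% were called higher and 17.6% lower in VAT in WT, and 23.3% higher in KO. None of the 5 neutrophil markers passed, their sum stayed between 0.0518 and 0.632 CPM, and the defining marker Ly6g had 0 counts in every VAT library. In these bulk libraries fewer cells of a type and less RNA per cell cannot be told apart.

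A few genes held most of the chemokine reads, in an order that differed between groups. CPM is not divided by gene length, so this order of reads is not one of transcript numbers. Ccl11, known as eotaxin for its pull on eosinophils, gave 24.2% of the summed chemokine CPM over all libraries, the neutrophil chemokine Cxcl1 gave 21.9%, Cxcl12, the ligand of Cxcr4, gave 21.6%, and Cxcl14 gave 9.84%. Ccl7 and Ccl2, chemoattractants of monocytes, followed with 7.57% and 4.53%. By group mean, Cxcl12 (393 CPM) and Cxcl1 (390 CPM) exceeded Ccl11 (362 CPM) in WT SAT, and did so in KO SAT as well (356 and 357 against 297 CPM). Ccl11 led in VAT, with 472 CPM in WT and 372 CPM in KO, where Cxcl14 was down to 53.4 and 64.9 CPM. Divided by the length of the exons of each gene, Ccl11 was the most abundant in all 4 groups, at a mean of 347 CPM per kb, ahead of Cxcl1 at 181 and Ccl7 at 147. Cxcl14 followed at 83.8 CPM per kb, Ccl2 at 61.9, Cxcl12 at 41.1, Cxcl13 at 32.4 and Cxcl10 at 25.4. Ccl8 came next over all libraries, at 7.04 CPM per kb, a rank that rests on SAT: in VAT it had 0.629 (WT) and 0.609 (KO) CPM per kb, below Cxcl16 at 7.44 and 8.21. The summed chemokine level was 1921 ± 191 CPM (SD, n = 4) in WT and 1648 ± 161 in KO for SAT, and 1351 ± 181 in WT and 1301 ± 161 in KO for VAT.

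**Figure D1:**
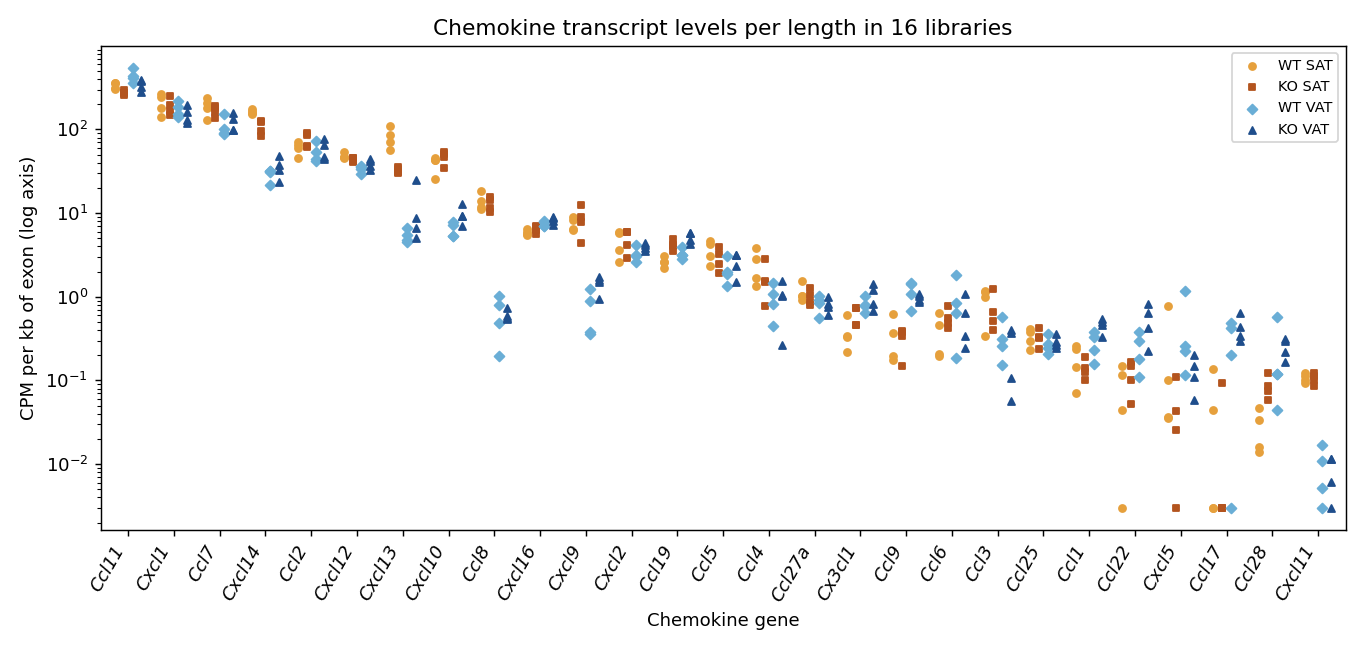
Level of each tested chemokine gene in each of 16 libraries, as CPM per kb of exon on a log axis, with genes ordered by their mean and values of 0 drawn at the lowest position. Ccl11, with a mean of 347 CPM per kb, stands first, and the drop from SAT (circles and squares) to VAT (diamonds and triangles) is widest for Ccl8, from means of 13.9 and 13.0 to 0.629 and 0.609 CPM per kb.

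The first pair of comparisons asked how chemokine expression differed between the fat depots, within each genotype. The interferon-induced chemokines Cxcl9 and Cxcl10, the B-cell chemokine Cxcl13, Cxcl14 and Ccl8 were far lower in VAT than in SAT. Ccl9, Ccl28, Cx3cl1, Ccl11 and Cxcl16 were higher in VAT. In WT, 5 of the 27 tested members were called higher in VAT than in SAT and 11 were called lower. Of all 16842 genes, 19.1% were called higher and 17.6% lower in that comparison, 36.7% in all. In KO, 8 members were called higher and 7 lower in VAT, where 23.3% and 20.0% of all genes were, 43.3% in all. Cxcl11 reached the filter's minimum in SAT libraries alone and Ccl17 in VAT libraries alone, and without these 2 genes the counts were 5 higher and 10 lower in WT and 7 higher and 6 lower in KO. The median log2 difference of VAT over SAT was -0.29 over the members and 0.00 over all genes in WT, and -0.19 and 0.02 in KO.

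**Figure D2:**
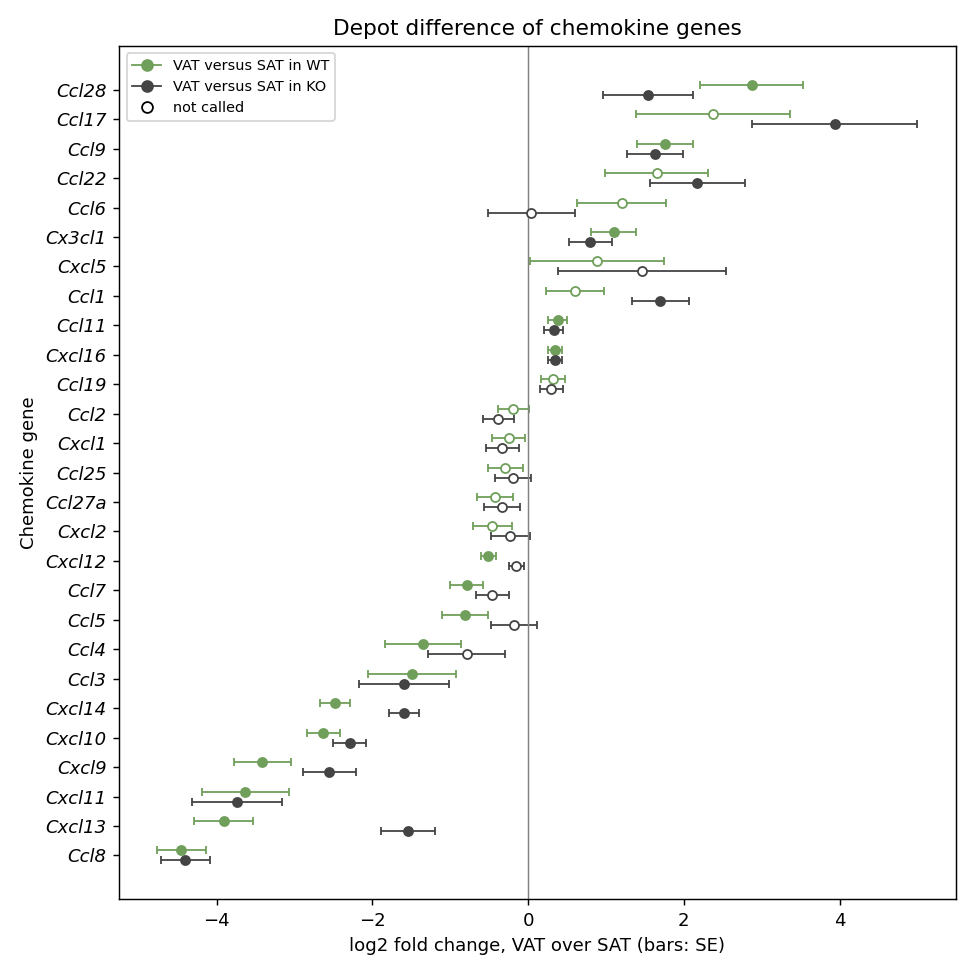
Log2 fold change of VAT over SAT for the 27 tested chemokine genes in WT (green) and KO (black), with bars for the SE, filled symbols for genes called at adjusted p under 0.05 and open symbols for the rest. Ccl8 lies lowest, at -4.45 in WT and -4.40 in KO, and Ccl17 in KO lies highest, at 3.94, with a wide SE. Ccl17 passed the filter through VAT libraries alone and Cxcl11 through SAT libraries alone, so a depot difference was built into their selection.

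The interferon-inducible ligands of Cxcr3, which attract activated T cells and natural killer cells, lie side by side on chromosome 5 (Cxcl9 at 92321347 to 92328079, Cxcl10 at 92346638 to 92348889, Cxcl11 at 92359544 to 92365485, all on the minus strand). The 250 bases before the RefSeq start of Cxcl9 and Cxcl10 are shown because both genes differed strongly between depots and carry matches to known inflammatory motifs, and those of Cxcl13 because it lies on the same chromosome and had a larger depot difference than both in WT, though a smaller one in KO. Sequences are from RefSeq (GRCm38.p6), read in the direction of the gene at chr5:92328080-92328329 (minus strand), chr5:92348890-92349139 (minus strand) and chr5:95956689-95956938 (plus strand). Capitals mark matches to a loose form of the NF-kB motif, which is GGG and CC with any 5 bases between them, or to the core of the interferon-stimulated response element (ISRE), which is a pair of GAAA with any 2 bases between them.
Cxcl9: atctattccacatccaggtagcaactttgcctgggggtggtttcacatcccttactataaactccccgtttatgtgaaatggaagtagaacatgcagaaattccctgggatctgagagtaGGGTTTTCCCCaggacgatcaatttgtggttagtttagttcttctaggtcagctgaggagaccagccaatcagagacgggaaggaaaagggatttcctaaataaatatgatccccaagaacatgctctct
Cxcl10: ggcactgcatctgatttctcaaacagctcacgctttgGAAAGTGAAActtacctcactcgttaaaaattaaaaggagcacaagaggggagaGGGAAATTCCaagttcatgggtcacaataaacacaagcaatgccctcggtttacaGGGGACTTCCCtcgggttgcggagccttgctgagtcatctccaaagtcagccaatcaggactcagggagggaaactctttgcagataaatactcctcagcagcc
Cxcl13: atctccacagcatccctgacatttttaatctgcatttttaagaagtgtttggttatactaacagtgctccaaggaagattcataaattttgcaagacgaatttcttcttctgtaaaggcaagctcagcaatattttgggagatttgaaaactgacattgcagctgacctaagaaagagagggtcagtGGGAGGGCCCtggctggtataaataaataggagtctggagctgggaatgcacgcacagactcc
In Cxcl9 a pair of overlapping NF-kB matches begins 130 and 129 bases before the start. Cxcl10 holds NF-kB matches beginning 159, 104 and 103 bases before the start, of which the last pair overlap, and an ISRE core at 213 bases. Cxcl13 has a single NF-kB match at 63 bases and no ISRE core in this window. Both strands were searched. An NF-kB match was present in 45.8% of all 32851 RefSeq windows of this length and an ISRE core in 2.98%, so the former match is common. Of the 37 chemokine genes, 26 had at least 1 promoter entry (32 windows in all). NF-kB matches lay in 16 of the 32 windows (15 members), ISRE cores in 3 (Ccl19, Cxcl10 and Cxcl14), and AAAGGTCA, the NBRE motif known to bind Nr4a1, in 1 (Ccl6) against 1.34% of all windows. A match is a description of letters and not evidence of binding.

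Cxcl10 stood at 97.2, 58.2, 103 and 96.6 CPM in WT SAT and at 121, 114, 78.0 and 105 CPM in KO SAT. In WT VAT, Cxcl10 had 16.1, 11.9, 12.1 and 17.5 CPM, against 15.6, 21.0, 20.6 and 28.6 CPM in KO VAT. Every VAT library lay below every SAT library. The depot difference (VAT over SAT) was -2.63 ± 0.21 in WT (adjusted p = 3.35e-08) and -2.29 ± 0.21 in KO (adjusted p = 1.14e-07). Cxcl9 stood at 24.9, 27.4, 19.4 and 19.2 CPM in WT SAT and at 37.3, 13.2, 27.4 and 23.3 CPM in KO SAT. Cxcl9 had 3.69, 2.72, 1.15 and 1.07 CPM in the WT VAT libraries, and the KO VAT libraries had 2.80, 5.21, 4.77 and 4.55 CPM. Depots again did not overlap in either genotype. Cxcl9 fell in VAT, with differences of -3.41 ± 0.37 (WT, adjusted p = 1.09e-06) and -2.55 ± 0.34 (KO, adjusted p = 1.19e-05).

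Cxcl11, annotated as a polymorphic pseudogene in GENCODE, was near the limit of detection. It stood at 0.388, 0.357, 0.434 and 0.472 CPM in WT SAT and at 0.432, 0.389, 0.460 and 0.325 CPM in KO SAT. In the VAT libraries, Cxcl11 had 0.0650, 0.0415, 0 and 0.0194 CPM (WT) and 0, 0.0440, 0.0436 and 0.0235 CPM (KO), that is, at most 3 counts in a library. The gene passed the filter through its SAT libraries alone, so a depot difference was built into its selection, and 1582 bases of its exons overlap Gm2673 on the opposite strand, whose reads cannot be told apart with a kit that does not mark strand. Summed counts were 64 in WT SAT and 6 in WT VAT, a ratio of 11.0 per total count (exact 95% interval 4.77 to 31.0, counting error only), and 69 and 5 in KO, a ratio of 11.5 (4.71 to 36.6). The fitted difference was -3.63 ± 0.56 in WT (adjusted p = 6.17e-05) and -3.74 ± 0.58 in KO (adjusted p = 4.63e-05).

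Markers of T and natural killer cells, which are sources of interferon gamma, had overlapping levels in the depots, with 1 of 7 tested markers called lower in WT VAT and 0 in KO VAT. The list of 8, of which 7 passed the filter, summed to 3.17 to 7.33 CPM (WT) and 4.07 to 6.75 CPM (KO) in the SAT libraries, and to 2.53 to 6.91 CPM (WT) and 4.04 to 5.23 CPM (KO) in the VAT libraries, and no marker had 0 counts throughout. Of the 8 tested macrophage and monocyte markers, 6 in WT and 4 in KO were called higher in VAT. Of 10 progenitor markers, 7 were called lower in VAT and 1 higher in each genotype. Over all genes, 19.1% were called higher and 17.6% lower in VAT in WT, and 23.3% and 20.0% in KO. The part of these cell types in the result was not tested.

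Among the constitutive chemokines, Cxcl13, Cxcl14 and Cxcl12 were lower in VAT. Cxcl13, the ligand of Cxcr5 that draws B cells into follicles, stood at 65.0, 81.3, 126 and 98.0 CPM in WT SAT and at 35.0, 35.3, 40.5 and 39.2 CPM in KO SAT. VAT libraries of Cxcl13 had 7.57, 5.25, 6.31 and 5.52 CPM (WT) and 10.0, 28.3, 7.58 and 5.79 CPM (KO). Replicate 2 of KO VAT was far above the other VAT libraries yet below every SAT library. The depot difference was -3.91 ± 0.38 in WT (adjusted p = 3.98e-07) and -1.54 ± 0.35 in KO (adjusted p = 0.00180), and -2.26 in KO without that replicate. Cxcl14 (chromosome 13, 56288643 to 56296551), a chemokine of epithelia and fat, stood at 291, 277, 303 and 324 CPM in WT SAT and at 233, 173, 222 and 153 CPM in KO SAT. In WT VAT, Cxcl14 had 39.4, 58.9, 56.6 and 58.5 CPM, against 42.5, 60.3, 87.5 and 69.2 CPM in KO VAT. The lowest SAT library exceeded the highest VAT library. Cxcl14 fell in VAT, with differences of -2.48 ± 0.19 (WT, adjusted p = 2.30e-08) and -1.59 ± 0.19 (KO, adjusted p = 2.53e-06).

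Cxcl12 (chromosome 6, 117168535 to 117181367), which retains haematopoietic cells in their niches, stood at 373, 436, 382 and 382 CPM in WT SAT and at 335, 374, 343 and 372 CPM in KO SAT. Cxcl12 had 240, 294, 296 and 276 CPM in the WT VAT libraries, and the KO VAT libraries had 299, 342, 271 and 367 CPM. The WT depots were apart, whereas the KO depots overlapped. Cxcl12 fell by 0.51 ± 0.10 in WT VAT (adjusted p = 0.000445), and its difference in KO was -0.15 ± 0.10 (adjusted p = 0.209). The change in the depot difference between genotypes was itself not called (0.35 ± 0.14, adjusted p = 0.229).

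Ccl19, a Ccr7 ligand that guides dendritic cells and naive T cells, had overlapping depots (0.32 ± 0.16 in WT, adjusted p = 0.128, and 0.30 ± 0.15 in KO, adjusted p = 0.119) and was not called. Of the mucosal and epithelial chemokines, Ccl28, a Ccr10 ligand, was higher in VAT. Ccl28 stood at 0.228, 0.0766, 0.0668 and 0.165 CPM in WT SAT and at 0.360, 0.415, 0.598 and 0.284 CPM in KO SAT. VAT libraries of Ccl28 had 0.585, 0.581, 2.75 and 0.214 CPM (WT) and 0.812, 1.52, 1.44 and 1.06 CPM (KO). Replicate 3 of WT VAT stood well above the others, and replicate 4 of WT VAT fell within the range of WT SAT. Ccl28 was higher in VAT by 2.87 ± 0.66 in WT (adjusted p = 0.00246), by 1.71 without WT VAT replicate 3, and by 1.54 ± 0.58 in KO (adjusted p = 0.0415). The KO call did not hold on leaving out replicate 1, 2 or 4 of the KO SAT group or replicate 2, 3 or 4 of the KO VAT group (highest adjusted p 0.106). Epithelial markers (4 of 5 passed), from cells that are known to make Ccl28, summed to 1.48 to 5.31 CPM (WT) and 1.61 to 3.29 CPM (KO) in the SAT libraries, and to 31.7 to 53.8 CPM (WT) and 18.8 to 72.2 CPM (KO) in the VAT libraries. That list includes keratin genes, as does the mesothelial list. Mesothelial markers summed to at most 10.4 CPM in any SAT library and to between 790 and 1533 CPM in the VAT libraries. The part of either cell type in the result was not tested.

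The CC chemokines of the monocyte and eosinophil group lie in a row on chromosome 11 (Ccl2 at 82035571 to 82037453, then Ccl7, Ccl11, Ccl12, Ccl8 and Ccl1) and did not move together. Ccl8 (82115185 to 82116799), which attracts monocytes and T cells, stood at 5.76, 5.97, 9.51 and 7.22 CPM in WT SAT and at 5.24, 8.01, 5.93 and 7.37 CPM in KO SAT. In WT VAT, Ccl8 had 0.412, 0.249, 0.0990 and 0.525 CPM, against 0.284, 0.374, 0.305 and 0.281 CPM in KO VAT. No VAT library came near any SAT library. Ccl8 fell in VAT, with differences of -4.45 ± 0.31 (WT, adjusted p = 6.07e-09) and -4.40 ± 0.31 (KO, adjusted p = 6.72e-09), from 7.12 ± 1.72 to 0.321 ± 0.187 CPM in WT (SD, n = 4). Ccl8 transcripts are known from tissue macrophages. Macrophage markers, given above, were higher in VAT, and their part in the Ccl8 result was not tested.

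Ccl11 (82057823 to 82062955) had a small difference in the other direction. It stood at 325, 341, 393 and 389 CPM in WT SAT and at 318, 292, 280 and 298 CPM in KO SAT. Ccl11 had 388, 466, 444 and 588 CPM in the WT VAT libraries, and the KO VAT libraries had 350, 410, 422 and 307 CPM. In each genotype 1 VAT library lay within the range of SAT and the other 3 lay above it. Ccl11 was higher in VAT by 0.38 ± 0.12 in WT (adjusted p = 0.0189) and by 0.33 ± 0.12 in KO (adjusted p = 0.0365). The WT call did not hold on leaving out WT SAT replicate 1 or 2 or WT VAT replicate 4 (adjusted p up to 0.0840), nor the KO call on leaving out KO SAT replicate 2, 3 or 4 or KO VAT replicate 2 or 3 (up to 0.117).

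Ccl7, a monocyte chemoattractant, stood at 143, 103, 191 and 167 CPM in WT SAT and at 154, 146, 110 and 128 CPM in KO SAT. VAT libraries of Ccl7 had 80.5, 73.5, 71.1 and 124 CPM (WT) and 78.4, 127, 106 and 78.9 CPM (KO). The highest VAT library of each genotype reached into the SAT range. Ccl7 fell by 0.79 ± 0.21 in WT VAT (adjusted p = 0.00597), while its difference in KO was -0.46 ± 0.21 (adjusted p = 0.0815). The KO difference was called when only the KO groups were fitted (adjusted p = 0.0310) and on leaving out replicate 2 of KO VAT (0.0309) or replicate 4 of WT VAT (0.0473). Ccl2, the main ligand of Ccr2 on inflammatory monocytes, stood at 74.7, 52.4, 80.0 and 68.3 CPM in WT SAT and at 104, 98.4, 72.0 and 71.1 CPM in KO SAT. In WT VAT, Ccl2 had 61.1, 50.0, 47.4 and 83.6 CPM, against 50.8, 86.3, 75.0 and 53.1 CPM in KO VAT. All 4 groups overlapped. Its depot differences were -0.19 ± 0.20 in WT (adjusted p = 0.514) and -0.38 ± 0.20 in KO (adjusted p = 0.144), neither of which was called.

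Chemokines of neutrophils, which act through Cxcr2, lie together on chromosome 5 (Cxcl5, Cxcl3, Cxcl15, Cxcl1 and Cxcl2, between 90759360 and 90905938), and no tested member of this row was called between depots in the fit over all libraries. Cxcl1 stood at 464, 262, 498 and 338 CPM in WT SAT and at 471, 367, 308 and 282 CPM in KO SAT. Cxcl1 had 350, 262, 289 and 412 CPM in the WT VAT libraries, and the KO VAT libraries had 245, 371, 300 and 222 CPM. Libraries of 1 group differed as widely as the groups did. The depot differences of Cxcl1 were -0.25 ± 0.21 in WT (adjusted p = 0.393) and -0.33 ± 0.21 in KO (adjusted p = 0.235). Cxcl2, a close relative, stood at 12.0, 5.41, 12.2 and 7.57 CPM in WT SAT and at 12.2, 12.2, 8.50 and 5.97 CPM in KO SAT. VAT libraries of Cxcl2 had 6.57, 6.41, 5.38 and 8.50 CPM (WT) and 8.65, 9.10, 7.34 and 7.90 CPM (KO). These groups overlapped as well, with differences of -0.46 ± 0.25 in WT (adjusted p = 0.159) and -0.23 ± 0.25 in KO (adjusted p = 0.471). Cxcl5, also a neutrophil chemokine, ranged from 0 to 2.16 CPM over all libraries, with differences of 0.89 ± 0.86 in WT (adjusted p = 0.454) and 1.46 ± 1.08 in KO (adjusted p = 0.297). Without WT SAT replicate 2, which was high for Cxcl5 and low for Cxcl2, both WT differences were called. They were 2.84 for Cxcl5 (adjusted p = 0.0198) and -0.67 for Cxcl2 (adjusted p = 0.0309). No other SAT library reached the filter's minimum for Cxcl5, so a depot difference was then built into its selection.

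The inflammatory CC chemokines Ccl5, Ccl9, Ccl6, Ccl3 and Ccl4, which are made mainly by leukocytes, form another row on chromosome 11 (83525778 to 83664683). They were low, and differed in opposite directions. Ccl9 stood at 1.12, 1.89, 0.534 and 0.590 CPM in WT SAT and at 1.18, 1.04, 1.15 and 0.447 CPM in KO SAT. In WT VAT, Ccl9 had 4.34, 4.44, 2.08 and 3.29 CPM, against 2.78, 3.25, 3.09 and 2.63 CPM in KO VAT. All VAT libraries lay above all SAT libraries. Ccl9 was higher in VAT by 1.76 ± 0.36 in WT (adjusted p = 0.000899) and by 1.63 ± 0.36 in KO (adjusted p = 0.00141). Macrophage markers, given above, were also higher in VAT, and their part in the result was not tested. Ccl6, its neighbour, ranged from 0.337 to 3.26 CPM over all libraries and was not called (1.20 ± 0.57 in WT, adjusted p = 0.114, and 0.04 ± 0.56 in KO, adjusted p = 0.966), except in WT on leaving out replicate 3 of WT VAT (1.54, adjusted p = 0.0306).

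Ccl3 stood at 0.868, 0.766, 0.901 and 0.259 CPM in WT SAT and at 0.504, 0.959, 0.391 and 0.305 CPM in KO SAT. Ccl3 had 0.195, 0.436, 0.238 and 0.117 CPM in the WT VAT libraries, and the KO VAT libraries had 0.0812, 0.0440, 0.305 and 0.281 CPM. The depots met or overlapped in both genotypes at these low levels. Ccl3 fell in VAT, with differences of -1.49 ± 0.56 (WT, adjusted p = 0.0463) and -1.59 ± 0.58 (KO, adjusted p = 0.0367). Ccl4 stood at 1.87, 1.12, 2.50 and 0.896 CPM in WT SAT and at 1.03, 1.89, 0.506 and 0.995 CPM in KO SAT. VAT libraries of Ccl4 had 0.954, 0.706, 0.297 and 0.545 CPM (WT) and 0.690, 0.176, 0.676 and 1.01 CPM (KO). Only 1 WT VAT library reached above the lowest WT SAT library. Ccl4 fell by 1.35 ± 0.49 in WT VAT (adjusted p = 0.0384), and its difference in KO was -0.79 ± 0.49 (adjusted p = 0.209). Ccl5, which attracts T cells, stood at 4.48, 4.11, 2.97 and 2.24 CPM in WT SAT and at 3.77, 3.11, 2.34 and 1.87 CPM in KO SAT. In WT VAT, Ccl5 had 2.93, 1.81, 1.88 and 1.30 CPM, against 2.23, 1.43, 3.07 and 3.07 CPM in KO VAT. Its depots overlapped in both genotypes. Ccl5 fell by 0.81 ± 0.30 in WT VAT (adjusted p = 0.0454), with a difference of -0.18 ± 0.30 in KO (adjusted p = 0.673). These calls changed with the settings. Among the alternatives run, the WT call was lost in 12 for Ccl3 (adjusted p up to 0.122), 11 for Ccl5 (up to 0.139) and 6 for Ccl4 (up to 0.116), and the KO call of Ccl3 in 5 (up to 0.148).

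Ccl22, Cx3cl1 and Ccl17 are neighbours on chromosome 8 (94745590 to 94812036). Ccl22 and Cx3cl1 were higher in KO VAT than in KO SAT. Cx3cl1, a membrane-bound chemokine for Cx3cr1 on monocytes, stood at 1.30, 2.37, 0.868 and 1.34 CPM in WT SAT and at 2.88, 1.79, 2.85 and 1.83 CPM in KO SAT. Cx3cl1 had 3.10, 2.53, 4.02 and 3.07 CPM in the WT VAT libraries, and the KO VAT libraries had 3.19, 5.65, 2.68 and 4.74 CPM. The WT depots did not overlap and the KO depots overlapped by 1 VAT library. Cx3cl1 was higher in VAT by 1.10 ± 0.29 in WT (adjusted p = 0.00695) and by 0.80 ± 0.28 in KO (adjusted p = 0.0310). The KO call did not hold on leaving out replicate 2 or 4 of either KO depot (adjusted p up to 0.119).

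Ccl22, a ligand of Ccr4 on regulatory and type 2 T cells, stood at 0.343, 0.102, 0.267 and 0 CPM in WT SAT and at 0.384, 0.233, 0.345 and 0.122 CPM in KO SAT. VAT libraries of Ccl22 had 0.889, 0.685, 0.416 and 0.253 CPM (WT) and 0.974, 0.528, 1.50 and 1.88 CPM (KO). The KO depots were apart, and 1 WT VAT library lay within WT SAT. Ccl22 was higher in KO VAT by 2.17 ± 0.61 (adjusted p = 0.00845), and its WT difference was 1.65 ± 0.66 (adjusted p = 0.0595). That WT difference was called with DESeq2 (adjusted p = 0.0244) and on leaving out replicate 1 of WT SAT (0.0323) or replicate 4 of WT VAT (0.0399). Ccl17, which shares the receptor, stood at 0.0228, 0, 0 and 0.0708 CPM in WT SAT and at 0.0480, 0, 0 and 0 CPM in KO SAT. In WT VAT, Ccl17 had 0.217, 0.104, 0 and 0.253 CPM, against 0.223, 0.154, 0.174 and 0.328 CPM in KO VAT. It passed the filter through VAT libraries alone, so a depot difference was built into its selection. Summed counts were 2 in KO SAT and 40 in KO VAT, a ratio of 24.0 per total count (exact 95% interval 6.21 to 205), and 4 and 28 in WT, a ratio of 6.81 (2.38 to 26.7). The fitted difference was 3.94 ± 1.06 in KO (adjusted p = 0.00590) and 2.37 ± 0.99 in WT (adjusted p = 0.0724), and the KO value moved to 6.30 without KO SAT replicate 1, the only KO SAT library with a count. The WT value was called on leaving out replicate 4 of WT SAT (3.66, adjusted p = 0.0403) or replicate 3 of WT VAT (2.78, adjusted p = 0.0202).

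Ccl1, a ligand of Ccr8, stood at 0.343, 0.562, 0.167 and 0.613 CPM in WT SAT and at 0.240, 0.337, 0.299 and 0.447 CPM in KO SAT. Ccl1 had 0.369, 0.893, 0.554 and 0.778 CPM in the WT VAT libraries, and the KO VAT libraries had 1.10, 0.792, 1.29 and 1.17 CPM. Depots overlapped in WT and were apart in KO. Ccl1 was higher in KO VAT by 1.70 ± 0.37 (adjusted p = 0.00131), its WT difference was 0.60 ± 0.37 (adjusted p = 0.224), and the change between genotypes was not called (1.10 ± 0.53, adjusted p = 0.316). Dendritic cells are a known source of Ccl22 and Ccl17. Their 5 markers, all of which passed, summed to 14.0 to 20.5 CPM (WT) and 14.1 to 23.8 CPM (KO) in the SAT libraries, and to 22.1 to 23.8 CPM (WT) and 27.9 to 33.1 CPM (KO) in the VAT libraries, and their part in the result was not tested.

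Cxcl16, a transmembrane chemokine and ligand of Cxcr6, showed a small and even difference. It stood at 18.2, 16.9, 19.4 and 16.5 CPM in WT SAT and at 21.3, 18.9, 20.7 and 16.8 CPM in KO SAT. VAT libraries of Cxcl16 had 21.1, 21.2, 23.6 and 24.0 CPM (WT) and 26.3, 21.5, 27.4 and 24.1 CPM (KO). The depots were apart in each genotype. Cxcl16 was higher in VAT by 0.34 ± 0.09 in WT (adjusted p = 0.00811) and by 0.35 ± 0.09 in KO (adjusted p = 0.00515). Of its exon bases, 552 overlap Zmynd15 on the opposite strand. Ccl27a and Ccl25, ligands of Ccr10 and Ccr9, ranged from 1.31 to 3.64 CPM and from 1.54 to 3.19 CPM over all libraries, and neither was called. The Ccl27a differences were -0.42 ± 0.23 in WT (adjusted p = 0.168) and -0.33 ± 0.23 in KO (adjusted p = 0.266). Those of Ccl25 were -0.29 ± 0.23 (adjusted p = 0.341) and -0.19 ± 0.23 (adjusted p = 0.530).

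**Figure D3:**
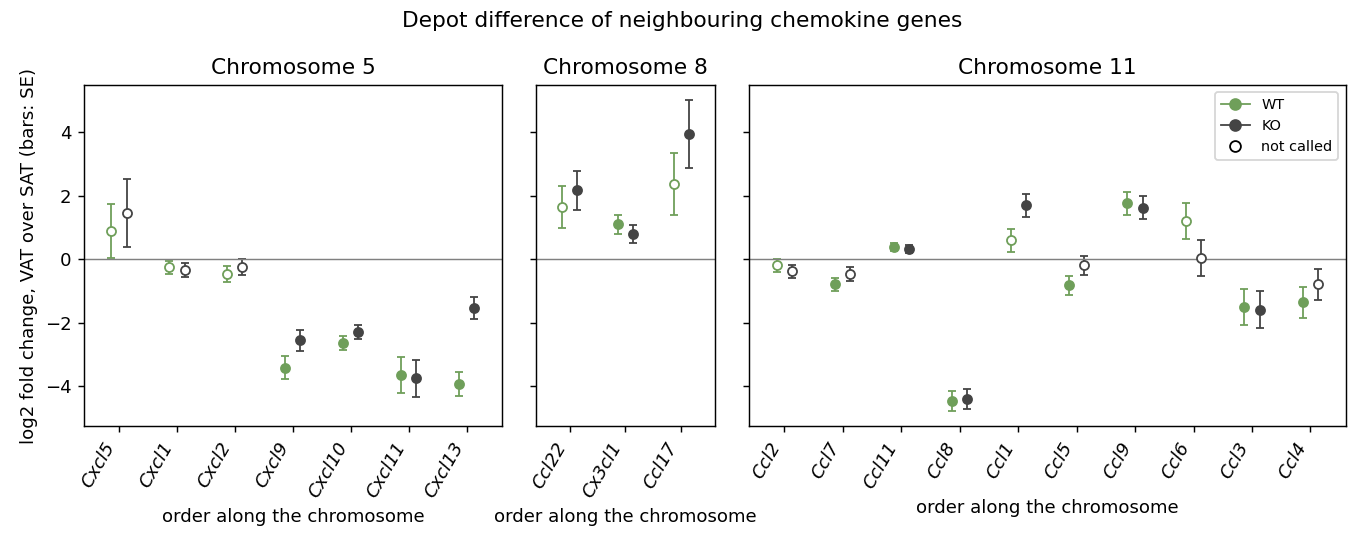
Log2 fold change of VAT over SAT (bars: SE) for tested chemokine genes in their order along chromosomes 5, 8 and 11, in WT (green) and KO (black), with open symbols for genes that were not called. On chromosome 5 Cxcl9 and Cxcl10 lie between -2.29 and -3.41 while Cxcl1 and Cxcl2 lie near 0. Cxcl11, at -3.63 in WT and -3.74 in KO, passed the filter through SAT libraries alone, so a depot difference was built into its selection. On chromosome 11 Ccl8 at -4.45 stands next to Ccl1 at 0.60 in WT.

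The next comparisons asked which chemokines differed between KO and WT progenitors of the same depot. Few did. In KO SAT, 1 of 27 tested members was called higher (Ccl19) and 1 lower (Cxcl13). Of all genes, 3.46% were called higher and 2.43% lower in that comparison, 5.89% in all, so these counts are near the background. In KO VAT, 1 member was called higher (Ccl19) and 0 lower, against 2.84% and 1.26% of all genes, 4.10% in all. At an unadjusted p under 0.05 there were 7 members in SAT (25.9%) and 6 in VAT (22.2%), against 22.5% and 17.4% of all genes. The median log2 difference over the members was -0.13 in SAT and 0.16 in VAT, where all genes had -0.01 and 0.00.

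**Figure D4:**
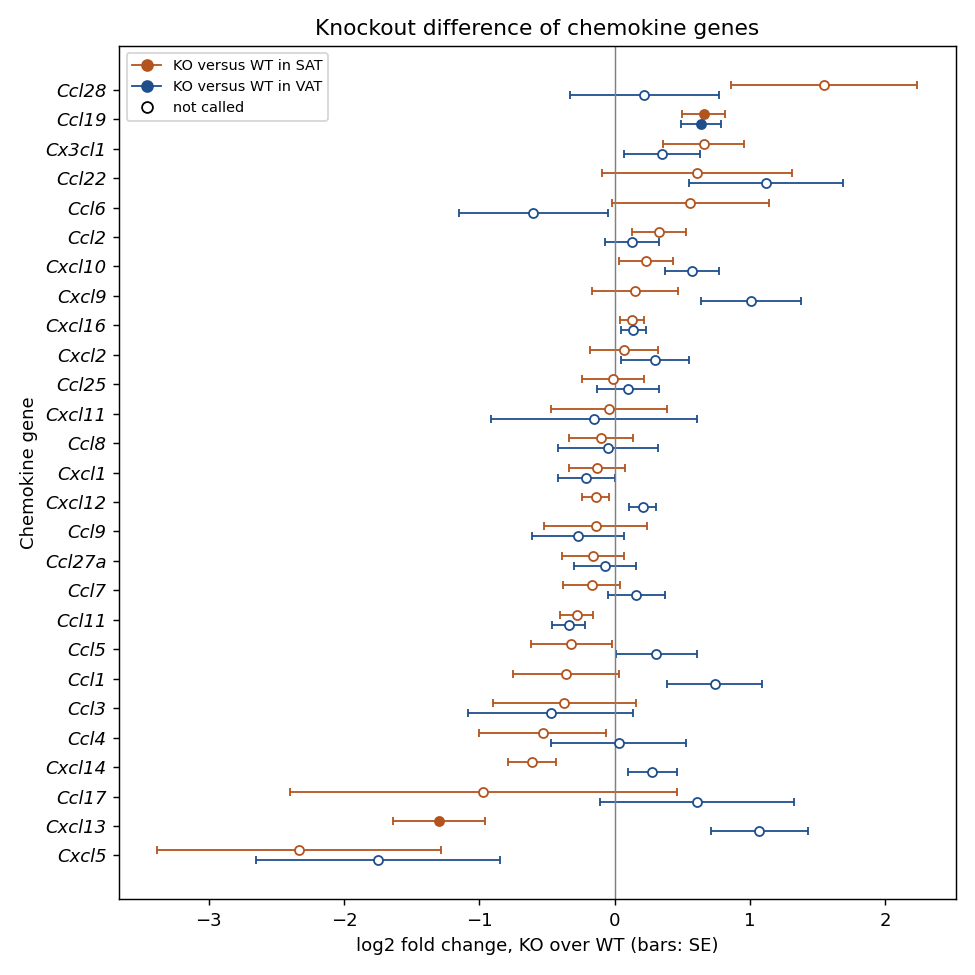
Log2 fold change of KO over WT for the 27 tested chemokine genes in SAT (orange) and VAT (blue), with bars for the SE and filled symbols for called genes. Ccl19 is filled in both depots, at 0.66 and 0.64, and Cxcl13 is filled in SAT alone, at -1.30, with 1.07 in VAT not called.

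Ccl19 (chromosome 4, 42754525 to 42756577) stood at 2.28, 1.94, 2.64 and 2.26 CPM in WT SAT and at 3.48, 4.22, 3.61 and 3.05 CPM in KO SAT. In WT VAT, Ccl19 had 2.45, 2.74, 2.71 and 3.44 CPM, against 4.08, 5.01, 3.68 and 4.95 CPM in KO VAT. Every KO library exceeded every WT library of its depot. Ccl19 rose by 0.66 ± 0.16 in KO SAT (adjusted p = 0.0212), from 2.28 ± 0.285 to 3.59 ± 0.486 CPM (SD, n = 4). It rose by 0.64 ± 0.15 in KO VAT (adjusted p = 0.0239), from 2.84 ± 0.425 to 4.43 ± 0.656 CPM. The SAT call was lost when only the SAT groups were fitted (adjusted p = 0.0538) and on leaving out replicate 2 of either SAT group (up to 0.0728). The VAT call was lost without the low-count filter (0.0517) and on leaving out replicate 1, 2 or 3 of the WT VAT group or replicate 2 or 4 of the KO VAT group (up to 0.0854). Chromosome 4 of the mouse holds near-identical copies of Ccl19, Ccl21 and Ccl27 genes that differ in number between strains, and the sources used here do not say how reads with several matches were counted, so the source of these reads is uncertain. Lymphatic endothelial markers, from cells known to make related Ccr7 ligands (3 of 4 passed), summed to 1.48 to 2.65 CPM (WT) and 1.84 to 3.01 CPM (KO) in the SAT libraries, and to 3.52 to 5.42 CPM (WT) and 4.63 to 5.25 CPM (KO) in the VAT libraries, overlapping between genotypes in each depot. Other marker sums did move with Ccl19 in KO VAT. Those of dendritic cells, which respond to Ccl19, were 27.9 to 33.1 CPM in KO VAT against 22.1 to 23.8 CPM in WT VAT (1 of 5 called higher). Those of adipocytes (5 of 5 passed) were 148 to 253 CPM in KO VAT against 82.2 to 97.7 CPM in WT VAT (3 of 5 called higher). Over all genes, 2.84% were called higher in KO VAT. In SAT the dendritic cell and adipocyte sums overlapped between genotypes. B and plasma cell markers were low but summed higher in KO SAT, at 1.15 to 3.08 CPM against 0.334 to 0.777 CPM in WT SAT. In VAT their range was 6.94 to 26.5 CPM in KO against 1.83 to 7.91 CPM in WT, with overlap. The part of these cell types in the Ccl19 values was not tested.

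Cxcl13 fell by 1.30 ± 0.34 in KO SAT (adjusted p = 0.0323), from 92.5 ± 25.9 to 37.5 ± 2.79 CPM, and its highest KO SAT library (40.5 CPM) was below its lowest WT SAT library (65.0 CPM). The call did not hold on leaving out any 1 library of KO SAT, or replicate 3 or 4 of WT SAT (highest adjusted p 0.0914). In VAT its KO difference was 1.07 ± 0.36 (adjusted p = 0.120) and 0.34 without KO VAT replicate 2, which held 28.3 CPM. The depots' KO differences were apart by 2.37 ± 0.50, short of a call (adjusted p = 0.0583). That difference was called with DESeq2 (adjusted p = 0.00408), without the low-count filter (0.0381) and without KO VAT replicate 2 (0.0339), 3 (0.0282) or 4 (0.0447). B and plasma cell markers (6 of 7 in the table, 3 passed) summed to 0.334 to 0.777 CPM (WT) and 1.15 to 3.08 CPM (KO) in the SAT libraries, and to 1.83 to 7.91 CPM (WT) and 6.94 to 26.5 CPM (KO) in the VAT libraries, and their part in the Cxcl13 values was not tested.

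Cxcl14 and Ccl11 also had SAT groups that were apart by genotype. For Cxcl14 the gap lay between 277 CPM in the lowest WT library and 233 CPM in the highest KO library. Its KO difference in SAT was -0.61 ± 0.18 (adjusted p = 0.0573), short of a call in the main analysis. It was called with DESeq2 (adjusted p = 0.0159), when only the SAT groups were fitted (0.0340) and without KO VAT replicate 1 (0.0297) or 3 (0.0373). In VAT the difference was 0.28 ± 0.18 (adjusted p = 0.471), and the depots' differences were apart by 0.89 ± 0.26 without a call (adjusted p = 0.124). This last value was called with DESeq2 (0.90, adjusted p = 0.0293). The gap of Ccl11 was narrower, with 318 CPM in the highest KO library and 325 CPM in the lowest WT library. Its KO differences of -0.28 ± 0.12 in SAT (adjusted p = 0.172) and -0.34 ± 0.12 in VAT (adjusted p = 0.133) were not called. Cxcl12 differed by -0.14 ± 0.10 in SAT (adjusted p = 0.388) and 0.21 ± 0.10 in VAT (adjusted p = 0.269).

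**Figure D5:**
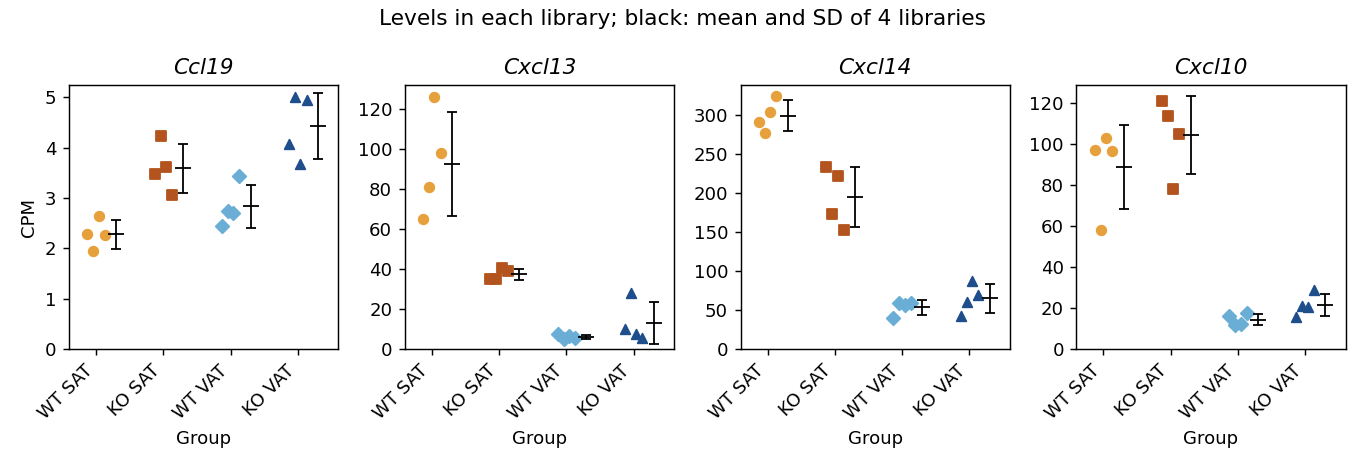
CPM of Ccl19, Cxcl13, Cxcl14 and Cxcl10 in each library, with the mean and SD of the 4 libraries of each group in black. Ccl19 is higher in KO than in WT in both depots (means of 3.59 against 2.28 CPM in SAT and 4.43 against 2.84 CPM in VAT), Cxcl13 and Cxcl14 have lower KO levels in SAT, and Cxcl10 separates by depot.

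The Cxcr3 ligands were not called between genotypes. In SAT the KO difference was 0.15 ± 0.32 for Cxcl9 (adjusted p = 0.812), 0.23 ± 0.20 for Cxcl10 (adjusted p = 0.496) and -0.04 ± 0.43 for Cxcl11 (adjusted p = 0.970). In VAT it was 1.01 ± 0.37 for Cxcl9 (adjusted p = 0.144), with 3 of 4 KO libraries above every WT library, and 0.57 ± 0.20 for Cxcl10 (adjusted p = 0.138). Among the monocyte and neutrophil chemokines, KO differences in SAT were 0.33 ± 0.20 for Ccl2 (adjusted p = 0.352), -0.17 ± 0.21 for Ccl7 (adjusted p = 0.663), -0.13 ± 0.21 for Cxcl1 (adjusted p = 0.756) and 0.07 ± 0.25 for Cxcl2 (adjusted p = 0.899). Their KO differences in VAT were 0.13 ± 0.20 for Ccl2 (adjusted p = 0.813), 0.16 ± 0.21 for Ccl7 (adjusted p = 0.761), -0.21 ± 0.21 for Cxcl1 (adjusted p = 0.690) and 0.30 ± 0.25 for Cxcl2 (adjusted p = 0.602). None of these genes separated KO from WT libraries. Cxcl16 differed by 0.13 ± 0.09 in SAT (adjusted p = 0.423) and 0.14 ± 0.09 in VAT (adjusted p = 0.465).

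Of the low members, Ccl28 had 0.284 CPM in its lowest KO SAT library and 0.228 CPM in its highest WT SAT library, and a KO difference in SAT of 1.55 ± 0.69 that was not called (adjusted p = 0.196). Cx3cl1 differed by 0.66 ± 0.30 in SAT with overlapping groups (adjusted p = 0.201). Cxcl5 differed by -2.33 ± 1.05 in SAT (adjusted p = 0.200) and -1.75 ± 0.90 in VAT (adjusted p = 0.330). In each case 1 WT library stood far above the rest, at 1.43 CPM in SAT and 2.16 CPM in VAT, and without it the difference was -0.36 and -0.61. Ccl6 differed by 0.56 ± 0.58 in SAT (adjusted p = 0.598) and -0.60 ± 0.55 in VAT (adjusted p = 0.643). For Ccl27a the values were -0.16 ± 0.23 (adjusted p = 0.716) and -0.07 ± 0.23 (adjusted p = 0.925), and for Ccl25 -0.01 ± 0.23 (adjusted p = 0.995) and 0.10 ± 0.23 (adjusted p = 0.886).

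The KO effect in VAT minus that in SAT was called for 0 of 27 members by edgeR, for 2 by DESeq2 and for 0 by limma-voom. Over all genes edgeR called 45 (0.267%), DESeq2 563 and limma-voom 38. At an unadjusted p under 0.05 there were 3 members (11.1%), Cxcl13, Cxcl14 and Cxcl12, against 16.0% of all genes. In the main fit over all 16 libraries, edgeR therefore called no chemokine difference between genotypes as depending on depot. The settings that called Cxcl13 and Cxcl14 are given above.

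The 10 members that did not pass the filter were Ccl20, Ccl21a, Ccl21b, Ccl27b, Ccl12, Ccl24, Ccl26, Cxcl3, Cxcl15 and Cxcl17. Their highest count in any library was 20, reached by Cxcl3. Ccl24 reached 12 counts and Ccl21a reached 8, while Ccl26 and Ccl27b had 0 counts in all 16 libraries. Ccl24 and Ccl26 are the other eotaxins, and both were near or at 0 in the same libraries in which Ccl11 was abundant.

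Receptors for these ligands were sparse, and those called were higher in VAT. Of 18 chemokine receptors, 13 passed the filter, and 4 were called in VAT against SAT in WT (30.8%) and 5 in KO (38.5%), all higher. These shares were below the 36.7% and 43.3% of all genes called in either direction, but above the 19.1% and 23.3% called higher. Ccr2, the receptor of Ccl2 and Ccl7, rose by 0.96 ± 0.17 in WT VAT (adjusted p = 0.000228), from 5.31 ± 0.863 to 10.3 ± 1.31 CPM. Ccr8, the receptor of Ccl1, rose by 1.85 ± 0.31 (adjusted p = 0.000160), Cxcr6, the receptor of Cxcl16, by 1.27 ± 0.20 (adjusted p = 6.07e-05), and Cxcr4 by 0.67 ± 0.23 (adjusted p = 0.0278). In KO VAT Ccr4, the receptor of Ccl17 and Ccl22, was called too (1.55 ± 0.48, adjusted p = 0.0144). These receptors are known mainly from leukocytes, and the pan-leukocyte marker Ptprc had 9.05 ± 3.06 CPM in WT SAT and 12.3 ± 1.37 CPM in WT VAT. No receptor was called between genotypes in either depot, with 2 in SAT and 1 in VAT at an unadjusted p under 0.05.

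Atypical receptors had large depot differences. Of 5, 4 were in the table and passed, and all 4 were called between depots in each genotype. Of all genes, 36.7% (WT) and 43.3% (KO) were called. Ackr4, which clears Ccl19, Ccl21 and Ccl25, was higher in VAT by 4.19 ± 0.20 in WT (adjusted p = 6.30e-11) and 3.35 ± 0.19 in KO (adjusted p = 4.07e-10). Ccrl2 was higher by 1.19 ± 0.09 in WT (adjusted p = 2.90e-08). Ackr2, a scavenger of inflammatory CC chemokines, fell by 1.91 ± 0.17 in WT VAT (adjusted p = 8.88e-08), and Ackr3, a second receptor for Cxcl12, fell by 1.21 ± 0.13 (adjusted p = 1.06e-06). Between genotypes 0 of these 4 genes were called in either depot, with 3 at an unadjusted p under 0.05 in each. The genes that cleave or present chemokines were measured in full (14 of 14), with 5 higher and 5 lower in WT VAT. That was 71.4% called, against 36.7% of all genes. The lists were chosen with earlier results of these data known, so such shares are a description and not a test. The gelatinase gene Mmp2 fell by 1.82 ± 0.09 (adjusted p = 1.31e-10) and Dpp4 fell by 1.72 ± 0.16 (adjusted p = 1.76e-07), whereas the syndecan gene Sdc3 rose by 1.27 ± 0.15 (adjusted p = 4.55e-06). In KO SAT 3 rose, Adam17 (0.42 ± 0.08, adjusted p = 0.00430), Adam10 (0.26 ± 0.07, adjusted p = 0.0316) and Sdc1 (0.49 ± 0.13, adjusted p = 0.0344), and Sdc4 fell by 0.44 ± 0.12 (adjusted p = 0.0407). The called share in KO SAT was 28.6%, against 5.89% of all genes. Adam10 and Adam17 encode the sheddases known to release Cx3cl1 and Cxcl16 from the membrane. In KO VAT 0 of the 14 were called, with 1 at an unadjusted p under 0.05.

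Interferon-responsive genes were lower in VAT, as Cxcl9 and Cxcl10 were. All 14 were tested, and 9 in WT (median -0.75) and 14 in KO (median -1.10) were called lower in VAT than in SAT. These are 64.3% and 100% of the list, against 17.6% and 20.0% of all genes called lower. Usp18 fell by 2.63 ± 0.18 in WT VAT (adjusted p = 5.12e-09), and Irf7 fell by 1.23 ± 0.21 (adjusted p = 0.000140). In KO SAT 7 of the 14 were called higher and 0 lower (median 0.61). That was 50.0%, where 3.46% of all genes were called higher. The list was chosen with earlier results of these data known, so these shares are a description and not a test. Among those that rose were Ifih1 (0.62 ± 0.09, adjusted p = 0.000681), Oasl2 (0.83 ± 0.16, adjusted p = 0.00425) and Irf9 (0.34 ± 0.08, adjusted p = 0.0146). In KO VAT 0 were called, with 2 at an unadjusted p under 0.05. Cxcl9, Cxcl10 and Cxcl11, themselves interferon-inducible, were called in neither depot of KO. The KO effects on Ifih1 differed between depots (-0.82 ± 0.13, adjusted p = 0.0202).

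NF-kB factors and targets (20 of 20 tested) had 4 members higher and 6 lower in WT VAT, among them Traf1 (0.94 ± 0.13, adjusted p = 1.48e-05) and the macrophage growth factor Csf1, which fell by 0.62 ± 0.11 (adjusted p = 0.000200). The called share between depots was 50.0% in WT and 35.0% in KO, against 36.7% and 43.3% of all genes. Between genotypes 0 of the 20 were called in SAT and 0 in VAT, with 5 in each at an unadjusted p under 0.05. Of the inducing cytokines and their receptors (20 of 22 tested), 4 were higher and 8 lower in WT VAT, where 19.1% and 17.6% of all genes were. Il4ra, the receptor chain through which type 2 cytokines induce Ccl11, fell by 2.42 ± 0.16 in WT VAT (adjusted p = 2.46e-09) while Ccl11 itself was slightly higher there. In KO SAT Il33 (0.88 ± 0.10, adjusted p = 7.73e-05), Il13ra1 (0.83 ± 0.13, adjusted p = 0.000838) and Il4ra (0.82 ± 0.15, adjusted p = 0.00303) rose, and Tnfrsf1a and Ifngr1, the receptor for interferon gamma, fell by 0.23 ± 0.07 (adjusted p = 0.0458) and 0.34 ± 0.10 (adjusted p = 0.0487). Ifngr1 was the single member called in KO VAT, where it fell by 0.40 ± 0.10 (adjusted p = 0.0273). The 3 higher and 2 lower of 20 in KO SAT stand against 3.46% and 2.43% of all genes, and lie above that background. In KO VAT 4.10% of all genes were called, so 1 of 20 is near the background. Such shares are a description and not a test. Of the chemokines outside the naming rule, Pf4 and Xcl1 were tested and Ppbp was not. Xcl1, a chemokine of T and natural killer cells, fell by 1.89 ± 0.42 in WT VAT (adjusted p = 0.00163). Between the KO depots 0 of the 2 tested genes were called, with differences from -0.43 to 0.87.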

How the data were processed

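The authors deposited whole-number counts of reads per gene and library, and a second table of signal values that equal those counts divided by 1 factor per library (all counted values came back as whole reads within 0.01), used only as an alternative scaling. Per the labels' protocols, RNA came from an RNeasy Micro kit, and libraries were made with a NEBNext Ultra RNA kit and sequenced as single reads. Per the submitters' processing notes, STAR, featureCounts and DESeq were used with build mm10. The sources used here give no versions or gene annotation and do not say how reads with several matches were handled.

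Counts were analysed with edgeR 4.0.16 in R 4.3.3 (limma 3.58.1, DESeq2 1.42.0). Genes were kept by filterByExpr (about 0.227 CPM in 4 libraries, from a minimum count of 10), scaled by TMM and fitted by the quasi-likelihood model with 1 coefficient per group over all 16 libraries (12 residual degrees of freedom). Each SE was taken as the size of the log2 fold change over the root of the F statistic. p-values were adjusted by Benjamini-Hochberg over 16842 genes in each of 5 comparisons: the KO effect in SAT and in VAT, the depot difference in WT and in KO, and how far the KO effect differed by depot. The model was tested on simulated data. Positions and exon lengths are from GENCODE vM21 (GRCm38, the assembly of mm10) and promoters from RefSeq. The table holds 27 names shaped like dates, kept in totals only. Alternatives were other scalings, filters and tools, a replicate block, the 2 groups alone and leaving out each library.

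Chemokine genes, pathway lists and marker lists were chosen with earlier results of these data known. Their called shares, set beside those of all genes, are therefore descriptions and not tests. Values are given per library for members called in any comparison or with a mean of at least 5 CPM, by range for other tested members, and as the highest count for the rest. Up to 4 called genes with the smallest p-values are named per pathway list, and 1 such gene is not reported here. Intervals of count ratios are exact binomial intervals and cover counting error only.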

Additional observations from a re-analysis of the deposited data

Results flagged for a closer look

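Within the groups of 4, each tested member was checked for a library whose gap to its nearest neighbour took up more of the group's range than Dixon's critical value for 4 samples allows. This picked out 8 of 108 member and group combinations, and chance alone picks about 1 in 20. WT SAT replicate 2 had 58.2 CPM of Cxcl10 where the other libraries had 96.6 to 103, and 436 CPM of Cxcl12 where they had 373 to 382. The same library had 1.43 CPM of the neutrophil chemokine Cxcl5, with the others at 0.0668 to 0.189. In WT VAT, replicate 4 had 2.16 CPM of Cxcl5 against 0.217 to 0.477. WT VAT replicate 3 had 2.75 CPM of Ccl28 against 0.214 to 0.585, and replicate 1 had 39.4 CPM of Cxcl14 against 56.6 to 58.9. WT SAT replicate 3, the library with the fewest total counts (34655519), had 3.64 CPM of Ccl27a against 2.19 to 2.43. KO SAT replicate 1 had 0.0480 CPM of Ccl17, which is 2 counts, with 0 in the others.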

How the results depend on the processing

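Depth limits the low members: Cxcl11, Ccl17, Ccl22, Ccl1 and Ccl3 rest on at most 80 counts in a library. Over 93 member differences and 2208 settings, 2087 kept direction and side of the threshold, 69 lost a call, 21 gained one and 31 changed sign, and 23 of the 34 called differences kept their call in every setting run. In KO VAT the count of called members was 0 without the low-count filter. For the difference of KO effects it was 2 with DESeq2 and 1 without the filter. Leaving out 1 library gave 0 to 3 called members in KO SAT, 0 to 1 in KO VAT and 0 to 1 for the difference of KO effects, and 13 to 17 and 11 to 16 between depots in WT and KO. Over all genes DESeq2 called 1710 in KO SAT, 1248 in KO VAT and 563 for the difference of KO effects, and fitting the SAT groups alone called 509 in KO SAT. Leaving out 1 library gave 469 to 1158 genes in KO SAT, 412 to 1216 in KO VAT and 7 to 149 for the difference of KO effects. The cause of these shifts was not tested.

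Same-numbered libraries did not deviate together throughout (4 of 24 pairs had a correlation over 0.1, range -0.16 to 0.18, and 9 of 24 correlated best with their own number). Of those 4 pairs, 3 lay between WT SAT and WT VAT (0.14, 0.12 and 0.11), where the pair numbered 4 had -0.04. Between KO SAT and KO VAT the same-numbered pairs had 0.04, -0.04, 0.05 and 0.04. Replicates 1, 3 and 4 there correlated best with their own number, as did replicates 1 and 2 between WT SAT and WT VAT. No pair of groups had all its correlations over 0.1, and the main fit used no pairing. These values cannot settle whether SAT and VAT libraries of a number came from the same mice. The replicate block joins WT and KO libraries of a number, so it did not test pairing of depots within a genotype. With a replicate block 2 members were called in KO SAT, 1 in KO VAT, 14 and 12 between depots in WT and KO, and 0 for the difference of KO effects, where 14 genes in all were called. The depot calls of Ccl3 (-1.51 in WT, -1.47 in KO), Ccl4 in WT (-1.38), Cx3cl1 in KO (0.76) and Ccl11 in KO (0.32) were lost under the block.

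Sign changes touched only differences that were not called. On leaving out 1 library, the KO difference in SAT ranged from -0.29 to 0.01 for Cxcl1, -0.13 to 0.25 for Cxcl2, -0.09 to 0.37 for Cxcl9, -0.11 to 0.05 for Cxcl11, -0.30 to 0.02 for Ccl27a and -0.16 to 0.12 for Ccl25. In VAT it ranged from -0.02 to 0.33 for Ccl2, -0.23 to 0.04 for Ccl27a, -0.02 to 0.26 for Ccl25 and -1.10 to 0.04 for Ccl6. The depot difference ranged from -0.33 to 0.01 for Ccl5 in KO, -0.25 to 2.84 for Cxcl5 in WT and -0.46 to 0.29 for Ccl6 in KO. With limma-voom Ccl25 in KO SAT stood at 0.02 and Ccl6 between KO depots at -0.15. Ccl25 in KO SAT stood at 0.00 without the filter, with the authors' size factors (an alternative added after seeing the data) and with the SAT groups alone.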
